A study of Mus musculus with 4 samples.

Results

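RNA start sites inside repeats were compared between the 8-cell embryo and the blastocyst, which are 2 of the 4 stages of a mouse pre-implantation series, the other two being the fully grown oocyte and the 2-cell embryo. The 8-cell embryos had a labelled age of 68 h and the blastocysts of 92 h, with the starting point not stated, all from the F1 cross C57BL/6J X CBA/H, with no treatment or mutation named. Both stages were chosen by their labels, with no measured value involved. Total RNA was profiled with nanoCAGE, a protocol that selects capped RNA and reads the 5′ end, so that each read marks a possible start of transcription. Each stage is 1 sample, deposited as 3 runs numbered 1.1, 1.2 and 2, and the labels do not say whether the runs came from different pools of embryos. The runs were therefore taken as repeat runs, no p-value or SD between the stages was computed, and the spread between runs may be technical. The labels were not checked against marker genes, because no value per gene was used here.

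Most mouse repeats are remnants of transposable elements. LINE elements copy themselves through an RNA and encode their own reverse transcriptase, and SINE elements borrow that machinery. LTR elements derive from retroviruses and carry promoters in their long terminal repeats, several of which are used as stage-specific promoters in oocytes and cleavage embryos. Between the 8-cell stage and the blastocyst the embryo compacts and separates an outer layer, the trophectoderm, from the inner cell mass, while DNA methylation is low across the genome.

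The count table held 48685, 80059 and 1252133 counts in 8-cell runs 1.1, 1.2 and 2, against 41528, 36922 and 93980 in blastocyst runs in the same order, over 47 repeat families. A count of 3 was 0.00616%, 0.00375% and 0.00024% of the 8-cell runs and 0.00722%, 0.00813% and 0.00319% of the blastocyst runs. 8-cell run 2 was much the deepest and stood apart. Transposon families took 60.6% of its counts against 95.1% and 91.2% in runs 1.1 and 1.2, and RNA genes took 27.6% against 0.877% and 3.98%. Read names of the 6 runs carried 6 different tags, each a number or else a name prefix. These tags were taken as sequencing runs, which a tag alone does not establish. Effects of the stage and of the sequencing run therefore cannot be told apart.

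Of the 8 repeat classes, LINE elements had more and LTR elements fewer of the transposon counts in every blastocyst run than in any 8-cell run. LINE elements had 36.0%, 29.3% and 18.0% of transposon counts in 8-cell runs 1.1, 1.2 and 2, against 49.2%, 44.3% and 42.5% in blastocyst runs. LTR elements had 37.3%, 46.4% and 46.3% at the 8-cell stage and 27.6%, 27.1% and 35.9% in the blastocyst. The ratio of blastocyst to 8-cell means was 1.63 for LINE and 0.697 for LTR, so neither reached the 2-fold difference required here for a rise or a fall. Of the 4 transposon classes, 1 (25%) lay higher and 1 (25%) lower in all blastocyst runs. SINE elements had 23.6%, 20.7% and 32.9% against 18.9%, 26.9% and 18.6%, with overlapping runs. DNA transposons had 3.14% and 3.01% on average.

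**Figure D1:**
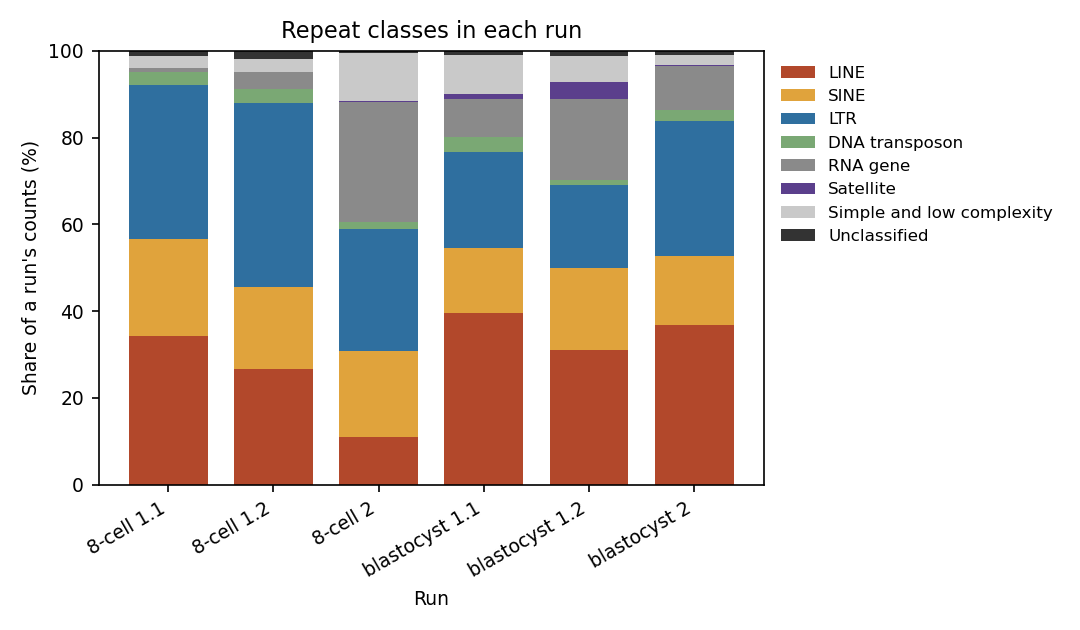
Stacked bars of the share of each run's counts (%) held by 8 repeat classes, 1 bar per run. The LINE part runs from 10.9% to 34.2% in the 8-cell runs and from 31.1% to 39.4% in the blastocyst runs, and RNA genes take 27.6% of 8-cell run 2.

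As shares of all counts the LINE and LTR runs overlapped, and RNA genes and simple repeats took a different part of each run. LINE elements had 34.2%, 26.7% and 10.9% in 8-cell runs, against 39.4%, 31.1% and 36.7% in blastocyst runs, which overlap. SINE elements were the 1 class of 8 (12.5%) whose blastocyst runs all lay below the 8-cell runs. They had 22.5%, 18.9073% and 19.9% against 15.2%, 18.8858% and 16.1%, a ratio of means of 0.817 with the nearest runs almost equal. No class passed the rule for a rise or a fall (0 of 8, 0%), which asked for stage means at least 2-fold apart and runs that did not overlap.

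LINE-1 (L1), the LINE family that includes the elements still mobile in the mouse, held most of the LINE counts in every run. It had 33.4%, 26.1% and 15.6% of transposon counts in 8-cell runs, against 46.6%, 41.9% and 37.4% in blastocyst runs. All 3 blastocyst runs lay above all 8-cell runs, at means of 25.03% and 41.9% and a ratio of 1.68. Of the 19 transposon families with 100 counts or more, L1 was the only 1 separated in this way (5.26%). Without 8-cell run 1.1 its ratio was 2.01 and with counts pooled over runs 2.32, and L1 then passed the rule for a rise. Pooled 8-cell transposon counts came mostly from run 2 (759227, against 46311 and 73000 in runs 1.1 and 1.2), where the L1 share was lowest. Without 8-cell run 2 the ratio of L1 was 1.41. As shares of all counts the L1 runs overlapped, at 31.7%, 23.8% and 9.47% against 37.3%, 29.4% and 32.3%, with a ratio of 1.52. Exact 95% intervals of these shares were narrow, from 31.3% to 32.2% in 8-cell run 1.1 and from 28.9% to 29.9% in blastocyst run 1.2. L1 made up 92.8%, 89.1% and 86.6% of LINE counts in 8-cell runs, against 94.6%, 94.5% and 88.0% in blastocyst runs.

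The older LINE families, which no longer move in the mouse, gave no common direction. L2 had 2.37%, 2.92% and 2.00% of transposon counts at the 8-cell stage and 2.20%, 2.31% and 4.74% in the blastocyst, so that its higher blastocyst mean rested on run 2. CR1 had 0.269% and 0.234% on average. RTE, a rare family with 219 and 96 counts, had 0.0367%, 0.0452% and 0.0223% against 0.0961%, 0.0425% and 0.0653%, a ratio of 1.96 with overlapping runs. RTE passed the rule without blastocyst run 1.2, at 2.32, and without 8-cell run 1.2, at 2.30.

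Among LTR families MaLR, the non-autonomous MT and ORR1 elements that are prominent in oocytes, was lower on average and ERVK differed little. MaLR had 17.9%, 25.5% and 12.6% of transposon counts in 8-cell runs, against 12.7%, 9.57% and 10.9% in blastocyst runs. 8-cell run 2 lay just below blastocyst run 1.1, and the other runs did not overlap. The means were 18.7% and 11.1%, a ratio of 0.592. As a share of all counts its ratio was 0.549. There MaLR passed the rule without 8-cell run 2, at 0.435, and with size factors, at 0.460, while counts pooled over runs gave 1.02. ERVK, the family of the IAP and ETn elements, had 9.22%, 11.2% and 17.4% against 8.80%, 10.4% and 12.3%. ERV1 had means of 2.84% and 3.15%.

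ERVL, the family that holds MERVL and the MT2 promoters active in the 2-cell embryo, differed more between runs of the blastocyst than between stage means. It had 6.90%, 7.01% and 13.7% of transposon counts in 8-cell runs, against 3.48%, 2.32% and 10.4% in blastocyst runs. Blastocyst run 2 thus lay above 8-cell runs 1.1 and 1.2, and without it ERVL passed the rule for a fall at a ratio of 0.316. Within the LTR class ERVL took 18.5%, 15.1% and 29.5% of counts at the 8-cell stage and 12.6%, 8.56% and 29.1% in the blastocyst. MaLR took 48.1%, 55.0% and 27.2% against 46.0%, 35.3% and 30.5%, and ERVK 24.7%, 24.1% and 37.6% against 31.9%, 38.3% and 34.4%. In both stages run 2 had the largest ERVL part and the smallest MaLR part. With all runs no LTR family passed the rule within its class. ERV1 took 8.57%, 5.70% and 5.75% of LTR counts against 9.33%, 17.7% and 5.82%. Without blastocyst run 2 it passed for a rise, at 2.02.

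Of the 5 SINE families with at least 100 counts, 3 were lower and 2 higher on average in the blastocyst. ID, a family derived from the BC1 RNA gene, fell as a share of all counts. It had 0.666%, 0.878% and 1.33% in 8-cell runs, against 0.588%, 0.157% and 0.557% in blastocyst runs, a 2.21-fold difference of means, and the nearest runs were 0.666% and 0.588%. Among transposon counts its runs overlapped, at 0.700%, 0.963% and 2.20% against 0.733%, 0.224% and 0.644%. Without 8-cell run 2 the difference in all counts was 1.78-fold, and without blastocyst run 1.2 it was 1.68-fold, and neither passed. B4 had 10.2%, 8.69% and 10.9% of transposon counts against 6.59%, 10.5% and 5.99%, and B2, a tRNA-derived family transcribed by RNA polymerase III, had 7.82%, 6.65% and 7.41% against 4.91%, 6.80% and 4.86%. In both families runs 1.1 and 2 of the blastocyst lay below every 8-cell run and run 1.2 did not.

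B1 elements, which derive from 7SL RNA and carry the family name Alu in the table, had 3.16%, 3.02% and 10.5% of transposon counts in 8-cell runs, against 4.53%, 7.99% and 4.70% in blastocyst runs. Leaving out 8-cell run 2 moved the ratio of means from 1.03 to 1.86, still with no rise by the rule, since the means were under 2-fold apart. The ratio of B2 to B1 counts in a run was 2.47, 2.20 and 0.706 in 8-cell runs, against 1.08, 0.851 and 1.04 in blastocyst runs. The ancient MIR family had 1.71%, 1.39% and 1.88% against 2.12%, 1.38% and 2.38%.

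Of the 6 DNA transposon families with at least 100 counts, which are inactive fossils in the mouse, 3 were higher and 3 lower on average as shares of all counts, and none passed the rule. MER1_type had 2.00%, 1.96% and 1.91% of transposon counts in the 8-cell runs, with little spread, and 2.71%, 1.15% and 1.86% in the blastocyst runs. MER2_type had 0.805%, 1.33% and 0.487% against 0.907%, 0.232% and 0.827%. The remaining 4 were rare. Tip100 had 0.127%, 0.137% and 0.303% against 0.225%, 0.0926% and 0.180%, and AcHobo had 192 and 89 counts at a ratio of 1.44. MuDR held 359 8-cell counts, 356 of them in run 2, and 22 blastocyst counts. hAT had 92 and 43 counts at a ratio of 2.62 with overlapping runs, and passed the rule as a share of all counts without 8-cell run 1.2, at 4.28, or without blastocyst run 1.2, at 3.38.

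**Figure D2:**
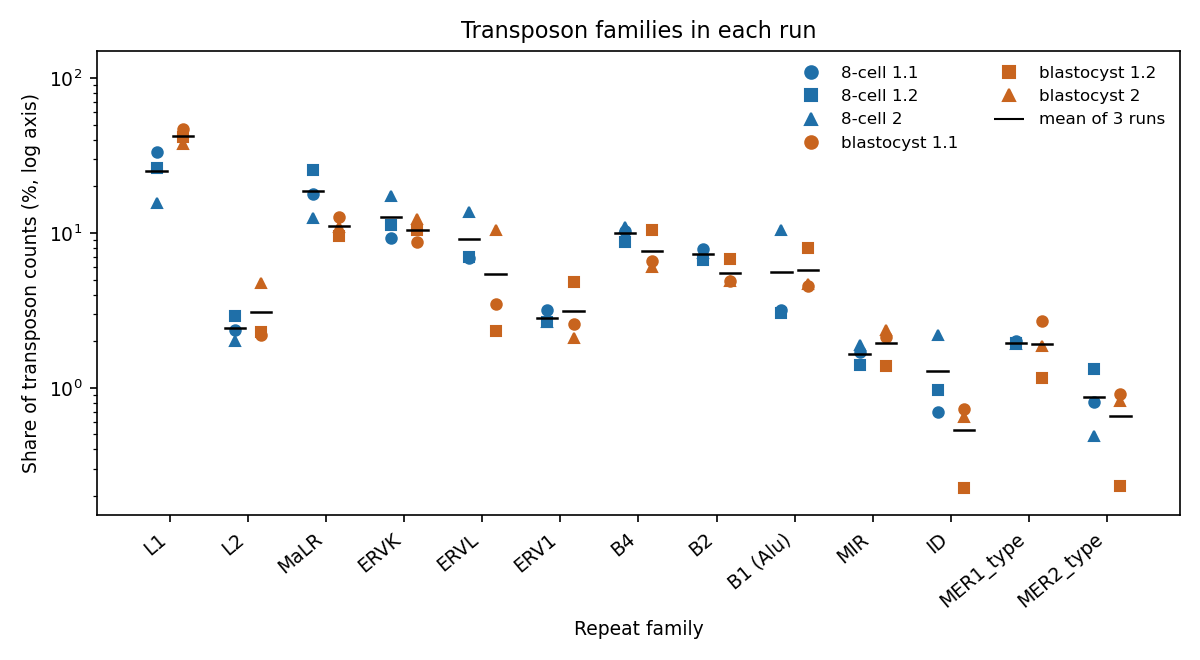
Share of transposon counts (%, log axis) of 13 families, with 1 point per run, 8-cell runs in blue and blastocyst runs in orange, and black lines for the mean of 3 runs. L1 is the only family shown whose runs do not overlap (15.6% to 33.4% against 37.4% to 46.6%), and ERVL shows 8-cell run 2 and blastocyst run 2 above the other runs of their stage.

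A ratio of 2 families in the same run does not depend on what the other families take. The L1 to MaLR ratio was 1.86, 1.02 and 1.24 in 8-cell runs 1.1, 1.2 and 2, against 3.67, 4.38 and 3.42 in blastocyst runs. Its geometric mean was 2.85 times as high in the blastocyst, no runs overlapped, and leaving out any 1 run gave values from 2.50 to 3.37. The L1 to B2 ratio was 4.27, 3.93 and 2.11 against 9.48, 6.16 and 7.69, and its geometric mean was 2.33 times as high. Without 8-cell run 2 it was 1.87 times as high and no longer passed. For L1 to ERVK it was 2.04 times as high, but the runs overlapped, at 3.62, 2.33 and 0.898 against 5.29, 4.03 and 3.03.

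The class ratio of LINE to LTR was 0.964, 0.632 and 0.389 in 8-cell runs, against 1.78, 1.63 and 1.18 in blastocyst runs. LTR counts thus exceeded LINE counts in all 3 8-cell runs, and LINE counts exceeded LTR counts in all 3 blastocyst runs. The geometric mean was 2.44 times as high in the blastocyst, and 1.94 times without 8-cell run 2. LINE to SINE was 2.03 times as high, and under 2-fold without 8-cell run 2 (1.46), blastocyst run 1.1 (1.84) or blastocyst run 2 (1.96). Among all 406 pairs of the 29 families with at least 100 counts and no 0, 66 (16.3%) had ratios that differed at least 2-fold with runs that did not overlap. L1 was higher relative to 6 of its 28 partners in this way and lower relative to none, and MaLR was higher relative to 1 and lower relative to 7.

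**Figure D3:**
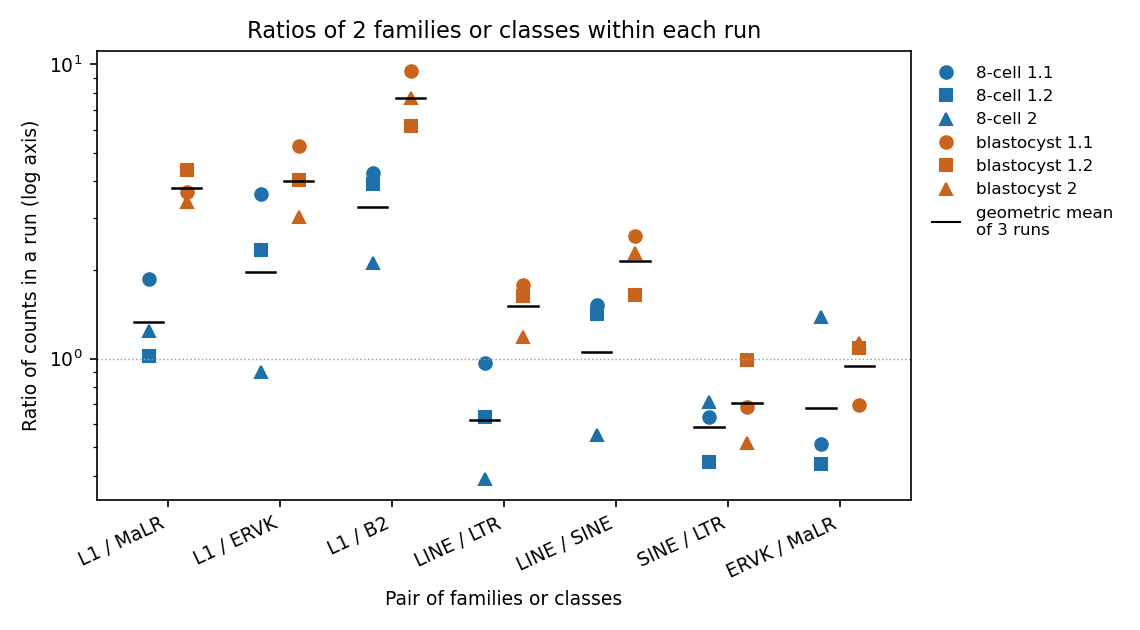
Ratio of the counts of 2 families or classes in the same run (log axis), with 1 point per run, 8-cell runs in blue and blastocyst runs in orange, and black lines for the geometric mean of 3 runs. L1 / MaLR lies from 1.02 to 1.86 in the 8-cell runs and from 3.42 to 4.38 in the blastocyst runs, while SINE / LTR overlaps.

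Several repeats that are not transposons differed many-fold between runs of a stage. Ribosomal RNA (rRNA) had 0.807%, 3.81% and 26.5% of counts in 8-cell runs, against 8.52%, 18.4% and 10.0149% in blastocyst runs. Without 8-cell run 2 its ratio of means was 5.33 and it passed the rule, and with all runs the ratio was 1.18. Satellites, the tandem repeats around centromeres, held 18, 34 and 2739 counts in 8-cell runs, against 490, 1461 and 154 in blastocyst runs. As shares these were 0.0370%, 0.0425% and 0.219% against 1.18%, 3.96% and 0.164%, so that only blastocyst run 2 lay below an 8-cell run. The ratio of means was 17.8. Satellites passed the rule without 8-cell run 2, at 44.5, or without blastocyst run 2, at 25.8. Simple repeats had 2.07%, 2.42% and 6.87% against 5.55%, 4.103% and 1.79%. Low-complexity sequence had 0.633%, 0.413% and 4.18% against 3.35%, 1.99% and 0.595%, so that 8-cell run 2 and blastocyst runs 1.1 and 1.2 lay above the other runs. Transfer RNA genes held 12, 35 and 13406 counts in the 8-cell runs, or 1.07% in run 2, and 19, 14 and 77 in the blastocyst runs.

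Small nuclear RNA genes, whose products act in splicing, rose 3.26-fold on 1, 18 and 55 counts in 8-cell runs, against 16, 10 and 27 in blastocyst runs. The ratio was 9.76 without 8-cell run 1.2. Their shares were 0.00205%, 0.0225% and 0.00439% against 0.0385%, 0.0271% and 0.0287%. The family named scRNA, for small cytoplasmic RNA, had 0.0329%, 0.0562% and 0.0294% against 0.166%, 0.114% and 0.0458%, a ratio of 2.75 with overlapping runs. It passed the rule without 8-cell run 1.2, at 3.49, or without blastocyst run 2, at 3.54. The family named RNA had 192 and 68 counts at a ratio of 2.75, also with overlapping runs. Its ratio was 4.31 without 8-cell run 1.2, where it passed, and 1.22 without blastocyst run 1.2. The family named Unknown fell 4.19-fold, from 0.458%, 0.781% and 0.330% to 0.101%, 0.0352% and 0.238%. Without blastocyst run 2 its ratio was 0.130, compared with 0.239 over all runs. Unknown was also lower relative to 22 of 28 partners in the same run, more than any other of the 29 families. What sequences this name stands for was not stated in the sources. The name Other had 0.709%, 1.1004% and 0.118% against 0.802%, 1.08% and 0.586%, and repeats named Y-chromosome held 125 and 75 counts at a ratio of 0.669.

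By the rule 4 of 47 families rose (8.51%) and 2 fell (4.26%) as shares of all counts. Among the 30 with at least 100 counts only small nuclear RNA rose (3.33%), and ID and Unknown fell (6.67%). Among transposon counts 4 of 34 families rose (11.8%) and 0 fell (0%). These 4 were Tc2, the families named DNA and ERVL?, and ERV1?, each with fewer than 100 counts. None of the 19 larger families passed in either direction (0%). Tc2, a DNA transposon family, held 6, 4 and 12 counts in 8-cell runs, against 24, 22 and 18 in blastocyst runs, whose totals were lower than that of 8-cell run 2. The other three rested on few counts. DNA had 3, 2 and 2 against 10, 4 and 11, ERVL? had 1, 1 and 9 against 2, 1 and 10, and ERV1? had 4, 0 and 16 against 3, 6 and 22. Several of these lie at or under the limit of 3 counts, and in each of these families the exact 95% intervals of some 8-cell and blastocyst runs overlapped. Past 2-fold alone, with overlap of runs allowed, 13 of 47 families (27.7%) were higher and 4 (8.51%) lower in the blastocyst. Among the 30 larger families these were 5 (16.7%) and 3 (10%), and among transposon counts 10 of 34 (29.4%) and 1 (2.94%). Leaving out 1 run raised the number of families that passed in all counts from 6 to 11 without 8-cell run 1.2, and to 10 without blastocyst run 1.2 or run 2. In transposon counts it went from 4 to 7 without 8-cell run 1.1, 8 without 8-cell run 1.2 and 10 without blastocyst run 1.2. Scaling mattered for the direction of many families. The median log2 ratio over the 30 larger families was 0.08 with run totals, -0.61 with size factors and -0.26 with TMM factors. B1, MuDR, rRNA, simple repeats and low-complexity sequence were higher on average with run totals and lower with both other scalings, and ERV1, L2 and MIR turned lower with size factors only.

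The read files gave the positions of read placements, without family names, in mm9 coordinates. They held 51434, 82454 and 1155992 lines in 8-cell runs, against 40922, 33473 and 95702 in blastocyst runs, each line 1 placement of 25 bases. Lines were from 0.907 (blastocyst run 1.2) to 1.06 (8-cell run 1.1) times a run's table counts. From 2.15% (blastocyst run 1.2) to 4.34% (8-cell run 2) of lines repeated another line exactly, read name included, and were kept. Starts at most 20 bp apart on a strand were joined into clusters over the 6 runs, and runs were compared at 33473 lines each. The 8-cell runs had 11378, 10164 and 5087 clusters and the blastocyst runs 24336, 7826 and 14660. The ratio of means was 1.76 with overlapping runs. Blastocyst run 1.1 was the most scattered, with 89.9% of its clusters holding a single line and 7600 clusters needed to reach 50% of its lines. The other runs needed from 53 clusters (blastocyst run 1.2) to 409 (blastocyst run 2).

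The score that the authors gave each placement differed by run, with medians of 16, 28 and 54 in 8-cell runs, against 16, 32 and 15 in blastocyst runs. Lines with a score of at least 20 made up 32.8%, 82.5% and 90.8% of the 8-cell runs and 4.41%, 88.8% and 7.55% of the blastocyst runs. With such lines only, at 1806 lines per run, there were 891, 925 and 708 clusters against 950, 771 and 819, a ratio of 1.01. At the same depth without the score limit there were 999, 935 and 742 against 1597, 768 and 1095, a ratio of 1.29 compared with 1.76 at 33473 lines, so that the ratio moved with both the depth and the score limit. On the plus strand lay 45.3%, 49.0285% and 42.2% of 8-cell lines and 46.8%, 37.4% and 59.8% of blastocyst lines. Blastocyst run 2 was the only run with most lines on the plus strand, and its largest cluster, on that strand of chromosome 5, held 8.39% of its lines.

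For each pair of runs, the smaller share of lines in each cluster was summed to give their overlap. Between the stages it averaged 8.96% over 9 pairs (3.35% to 14.2%), within the 8-cell stage 16.9% (2.75% to 41.0%) and within the blastocyst 10.9% (6.65% to 15.9%). 8-cell runs 1.1 and 1.2 shared 41.0%. The other 5 pairs within a stage lay between 2.75% and 15.9%, a span that includes all 9 pairs between stages. 8-cell run 2 shared 14.2% with blastocyst run 1.2, and 2.75% and 6.83% with the other 8-cell runs. Blastocyst run 2 shared 11.4% and 13.3% with 8-cell runs 1.1 and 1.2, and 6.65% and 10.2% with the other blastocyst runs. With a score of at least 20, at 1806 lines per run, the mean overlap was 7.62% between stages, 12.6% within the 8-cell stage and 21.0% within the blastocyst. Without the score limit at that depth these were 7.16%, 12.4% and 8.14%.

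**Figure D4:**
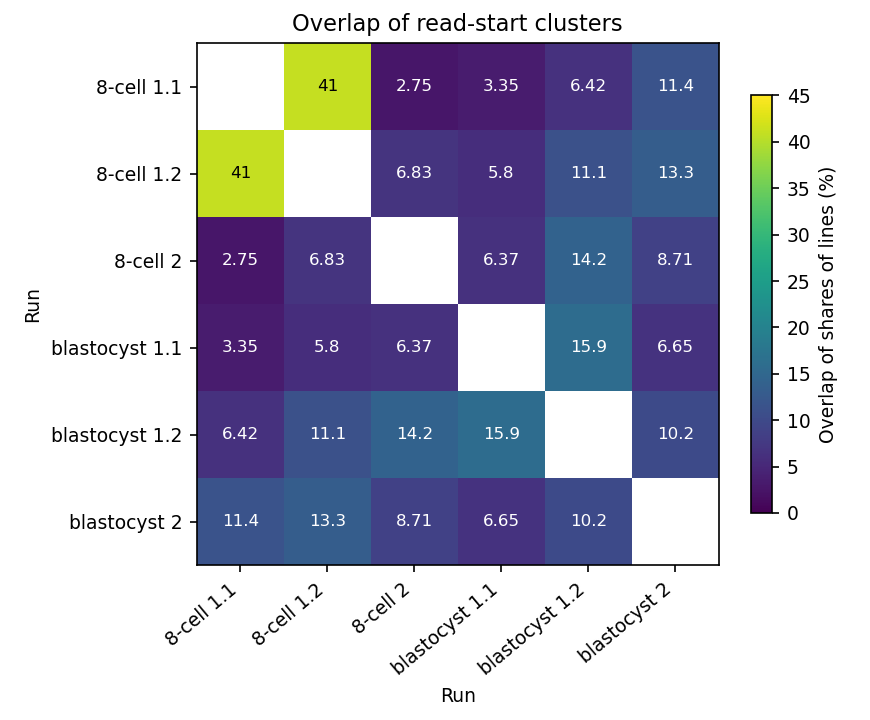
Overlap of read-start clusters between each pair of the 6 runs, from the smaller share of lines in each cluster (%), at 33473 lines per run. The pair of 8-cell runs 1.1 and 1.2 stands out at 41.0%, and every other pair lies between 2.75% and 15.9%.

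Of the 100 most used clusters of 8-cell run 1.1, 96 had a line in another 8-cell run and 79 in a blastocyst run. For 8-cell run 1.2 these were 100 and 73, and for 8-cell run 2 only 30 and 32. The corresponding numbers were 83 and 57 for blastocyst run 1.1, 97 and 37 for run 1.2 and 63 and 88 for run 2. In 8-cell run 2, 74 of the 100 clusters held over 90% of their share, summed over the 6 runs, in that run alone. This was so for 15 and 5 in the other 8-cell runs, and for 20, 35 and 29 among the blastocyst runs.

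The same rule was applied to the 1581 clusters with at least 10 lines over the 6 runs at equal depth. Of these, 55 (3.48%) fell and 16 (1.01%) rose from the 8-cell stage to the blastocyst. The 55 clusters lay on 18 chromosomes, 25 of them on the plus strand, with a median width of 6 bp. Together they took 12.1%, 17.4% and 0.756% of lines in 8-cell runs, against 0.0418%, 0.0866% and 0.134% in blastocyst runs, values that the rule itself used. In 8-cell run 2 they took far less than in the other 8-cell runs. Without 8-cell run 2, 407 clusters fell and 46 rose, and without blastocyst run 2, 100 fell and 252 rose. Leaving out blastocyst run 1.1 or 1.2 gave 33 or 46 that rose. With all lines of each run 140 (8.86%) fell and 26 (1.64%) rose, and with scores of at least 20 it was 4 (3.25%) and 1 (0.813%) of 123.

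The other stages were not used in choosing these clusters. The 55 clusters took 9.78% and 16.2% of lines in 2-cell runs 1 and 2, and 0.348%, 0.421% and 0.452% in oocyte runs 1.1, 1.2 and 2. All 1581 took 39.5% and 44.9% of 2-cell lines and 18.1%, 23.1% and 54.7% of oocyte lines. A few of the 55 held much of the 2-cell share. The cluster chr8:106314888-106314898 alone took 3.08% and 4.63%. The 39 of the 55 without a blastocyst line at equal depth together took 2.47% and 3.82%. Without the 2 of them that lie in the densest 10 kb of chromosome 17, the other 53 took 0.00551%, 0.00240% and 0.151% of oocyte lines and 9.74% and 16.2% of 2-cell lines. A line was present in both 2-cell runs for 53 of the 55 (96.4%), against 41.7% of all 1581 clusters. For oocytes the values were near those of all 1581. A line in every oocyte run was present for 4 (7.27%), against 9.42%. A line in at least 1 oocyte run was present for 15 (27.3%), against 24.5%. 2-cell run 2 shares its read-name tag with 8-cell run 2, and 2-cell run 1 with none of the 6 runs. Oocyte runs 1.1 and 2 share theirs with blastocyst run 1.2, and oocyte run 1.2 with 8-cell run 1.2. The rule favours clusters with many lines at the 8-cell stage, and the set of 1581 was not matched for that. No conclusion is therefore drawn from the comparisons with all 1581.

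**Figure D5:**
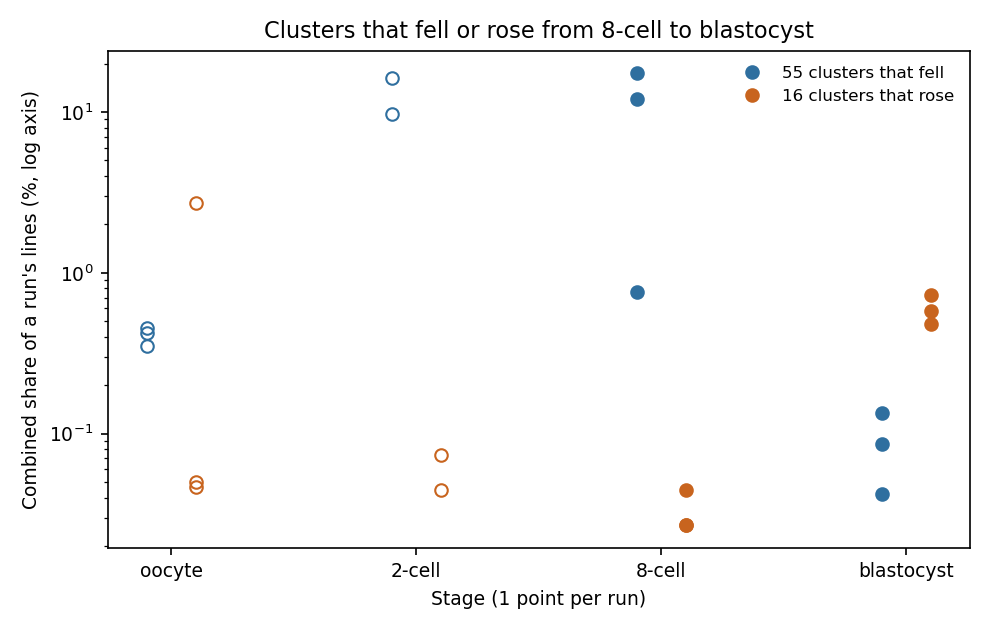
Combined share of a run's lines (%, log axis) in the 55 clusters that fell (blue) and the 16 that rose (orange) from the 8-cell stage to the blastocyst, with 1 point per run. Filled points are runs that chose the clusters, at 33473 lines each, and open points are oocyte and 2-cell runs with all lines. The clusters that fell take 9.78% and 16.2% of 2-cell lines, while no blastocyst run exceeds 0.134%.

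The largest 8-cell clusters outside chromosome 17 included 3 of those that fell. On chromosome 15, chr15:91709982-91710001 on the minus strand took 3.82%, 4.02% and 0.0807% of lines in 8-cell runs, against 0.0269%, 0.0478% and 0.0355% in blastocyst runs. With all lines the means differed 71.9-fold, and 8-cell run 2 lay much nearer to the blastocyst runs than to the other 8-cell runs. It took 0.917% and 1.04% in the 2-cell runs. The cluster chr8:106314888-106314898 on the plus strand had 1012, 4288 and 776 lines in 8-cell runs, against 0, 0 and 6 in blastocyst runs, and took 3.08% and 4.63% of 2-cell lines. The cluster chr2:77000448-77000458 on the minus strand had 861, 1882 and 585 lines against 1, 0 and 12. In 8-cell run 2 these 3 clusters took from 0.0506% to 0.0807% of lines, far less than in the other 8-cell runs.

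Other clusters had lines in all 8-cell runs and none in any blastocyst run. The first was chr13:117807103-117807107 on the plus strand, with 0.597%, 0.471% and 0.0124% of 8-cell lines, 0.498% and 0.926% of 2-cell lines and no oocyte line. Against the mean of 3 lines per blastocyst run, its mean share was at least 55.6-fold lower in the blastocyst. For chr7:68920288-68920297 on the minus strand, with 0.109%, 0.455% and 0.00787%, this bound was 29.4-fold. These bounds compare stage means and do not hold for 8-cell run 2 alone. Its 0.0124% and 0.00787% lay near the limit of 3 lines, which averaged 0.00648% over the blastocyst runs. The other 3 of the 5 such clusters with the highest lowest run, chr6:137539540-137539548, chr8:116874359-116874362 and chr7:62467692-62467697, had bounds from 2.28-fold to 7.82-fold. All 5 had lines in both 2-cell runs.

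The 16 clusters that rose held smaller shares. They took 0.577%, 0.481% and 0.729% of blastocyst lines and 0.0269%, 0.0269% and 0.0448% of 8-cell lines. Their median width was 12 bp. The largest by its lowest blastocyst run, named after its values were seen, was chr2:22600374-22600475 on the plus strand. Its share was 0.00583%, 0.0291% and 0.0150% at the 8-cell stage and 0.0513%, 0.209% and 0.315% at the blastocyst stage, a 9.4-fold difference at equal depth. It also took 2.53% of lines in oocyte run 2, but 0.0250% and 0.0116% in oocyte runs 1.1 and 1.2. A line in every oocyte run was present for 7 of the 16 clusters (43.75%), against 9.42% of all 1581, and in both 2-cell runs for 8 (50%), against 41.7%. A line in at least 1 oocyte run was present for 13, and in at least 1 2-cell run also for 13 (81.25%), against 24.5% and 57.6% of all. The rule requires a line in every blastocyst run, and the 1581 clusters, with a median width of 6 bp, were not matched for this or for width. No conclusion is therefore drawn from these comparisons. Clusters with lines in all blastocyst runs and no 8-cell line mostly held few lines. The first of the 5 by lowest run, chr12:117998075-117998077, had 2, 1 and 3 lines. chrX:3846793-3846803 had 47, 1 and 79 lines, with a median score of 1. The other three, chr16:25893003-25893011, chr9:57017197-57017198 and chr1:164347768-164347771, had 4 or 5 lines each.

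Of the 5 blastocyst clusters with the highest mean share, 3 came almost wholly from 1 run. chr5:88139998-88140006 on the plus strand held 8034 lines in run 2 and 1 and 2 lines in runs 1.1 and 1.2, with 99.4% of its lines at 1 base. Its share at the 8-cell stage was 0.999%, 0.0170% and 0.00580%. The cluster chr13:94350959-94350973 on the plus strand took 4.49% of run 2 and at most 0.0149% of the other blastocyst runs. The cluster chr12:100066739-100066741 on the minus strand took 3.95% of run 1.2, had 21 lines in run 1.1, and had no line in blastocyst run 2, the 8-cell runs or the oocyte and 2-cell runs.

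A few clusters were used in all 6 runs at both stages. chr11:86272576-86272587 on the plus strand took 0.144%, 1.095% and 0.939% of 8-cell lines and 0.310%, 1.06% and 0.235% of blastocyst lines. chr9:18036996-18037004 on the plus strand took 0.558%, 0.815% and 0.203% against 0.147%, 1.35% and 1.09%. chr14:64232396-64232407 on the minus strand took 2.63%, 1.55% and 0.0367% against 0.276%, 2.05% and 0.222%. chr1:124253746-124253800 on the plus strand took 0.0447%, 0.238% and 1.43% against 0.178%, 1.22% and 0.513%. These runs overlapped between stages in each case. At equal depth 64 of 66517 clusters had a line in all 6 runs, and 182 of the 335 clusters with at least 50 lines (54.3%) had lines at both stages.

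The densest 10 kb of the genome, chr17:39980001-39990000, took 0.418%, 2.28% and 17.7% of 8-cell lines and 4.59%, 14.5% and 4.43% of blastocyst lines. Runs with more rRNA counts had more lines there within each stage, apart from blastocyst runs 1.1 and 2, which had 8.52% and 10.0149% rRNA. Inside this interval lay the 2 minus-strand clusters with the highest mean blastocyst share. The cluster chr17:39984050-39985168 took 0.194%, 1.35% and 14.1% of 8-cell lines and 0.965%, 4.57% and 2.89% of blastocyst lines. The cluster chr17:39983398-39983646 took 0.198%, 0.807% and 2.49% against 3.23%, 9.64% and 1.30%. It was the larger of the pair in blastocyst runs 1.1 and 1.2, the smaller in blastocyst run 2 and in 8-cell runs 1.2 and 2, and about equal in 8-cell run 1.1. Without this interval the mean overlap between stages was 6.81%.

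Across chromosomes no share passed the rule. In all lines, chromosome 19 was the only chromosome whose runs did not overlap. It had 2.17%, 4.49% and 2.40% of 8-cell lines and 1.90%, 1.34% and 1.49% of blastocyst lines, a ratio of 0.523. Without the densest 10 kb, the runs of chromosomes 17 (0.585) and 6 (1.26) did not overlap either. Chromosome Y had 0.0292%, 0.0376% and 1.22% against 0.0977%, 0.0149% and 0.0669%, so that its lower blastocyst mean rested on 8-cell run 2. Chromosome X, which is rich in L1, had 7.31%, 4.58% and 3.58% against 7.54%, 4.06% and 6.39%. Mitochondrial lines made up 1.90% of 8-cell run 2 and at most 0.550% of any other run.

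The shape of clusters did not differ beyond the spread between runs. In clusters with at least 50 lines at equal depth, the median share of lines at the most used base was 74.9%, 67.0% and 70.4% in 8-cell runs, against 60.8%, 79.8% and 72.4% in blastocyst runs. The stage means were 70.8% and 71.0%, and median widths lay between 4 and 9 bp. These values rest on 64, 65 and 103 clusters in 8-cell runs, against 21, 74 and 38 in blastocyst runs.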

How the data were processed

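NanoCAGE reads of 4 mouse samples were deposited as 1 count table and 11 read files. The 6 runs of the 8-cell and blastocyst samples were compared. The oocyte and 2-cell files were used only for read-name tags and for lines in clusters defined from those 6 runs. The deposited counts are whole numbers of reads per repeat family and run, with totals that differ by run. The read files hold 1 placement per line and a deposited score between 1 and 99 whose scale is not stated. Per the submitters' processing notes the build was mm9 and CASAVA was used. The sources used here give no aligner, repeat annotation or handling of multiply placed reads. No gene annotation or sequence of mm9 was used here, so clusters are given by position only.

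Shares were taken of a run's total or of its 34 transposon families, and stages were averaged with equal weight of runs. A rise or fall needed means at least 2-fold apart and runs that did not overlap. Families were put into classes from general knowledge of repeat names. Starts (first base, 1-based) were joined within 20 bp, and runs thinned to 33473 lines with a fixed seed. Families with 100 counts or more are named, and those with a mean share of at least 1% in either stage are given in every run. Clusters are named as the 5 highest per stage by mean share, by lowest run, and by lowest run among those without a line in the other stage. Members, lists and rules were chosen with earlier results of these data known. Exact (Clopper-Pearson) 95% intervals and the limit of 3 counts cover counting error only, since amplified reads are not independent molecules. The rule and the clustering were tested on simulated data. There the runs of a stage differed by counting error only, so this does not show how the rule behaves with the spread between these runs. Python 3.11.15, numpy 2.4.6, pandas 2.3.3, scipy 1.17.1 and edgeR 4.0.16 (TMM factors only, beside median-of-ratios size factors) were used.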

Additional observations from a re-analysis of the deposited data

How the results depend on the processing

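No paired analysis was possible because each stage is 1 sample and no test was made. Leaving out 1 run leaves 2 runs against 3, which separate more easily. Families called in all counts then numbered 7 to 11 (6 with all runs), in transposon counts 4 to 10 (4), classes 0 to 2 (0), and families within their class 0 to 1 (0). With at least 100 counts 3 families passed in all counts and 0 in transposon counts. The L1 to B2 ratio ranged from 1.87 to 2.66, L1 to ERVK from 1.38 to 2.78, LINE to LTR from 1.94 to 3.05 and LINE to SINE from 1.46 to 2.43 when 1 run was left out. The L1 to MaLR ratio stayed at least 2-fold higher in the blastocyst under each of its 7 alternatives. Its runs already did not overlap, so these alternatives could not change that part of the rule.

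The blastocyst to 8-cell ratio of cluster numbers was 1.01 with scores of at least 20, 1.02 with each position and strand counted once, and 1.27 to 2.20 without 1 run. Those settings also lowered the depth, and all lines at the same depths gave 1.29 and 1.51. Falling clusters numbered 140 with all lines of each run, 4 of 123 with scores of at least 20, and 56 to 407 without 1 run. Rising clusters numbered 26, 1 and 20 to 252 in the same order. Another seed gave 64 and 20. The last 2 counts, the values at matched depth and the alternatives for ratios and cluster calls were chosen after seeing the data. Mean overlap between stages ranged from 7.86% to 10.8% without 1 run. Of 654 alternative values of single families and classes, 538 kept direction and call, 27 gained a call, 2 lost it and 87 with no call changed direction. The cause was not tested in any of these cases. For settings with fewer lines, values at matched depth were made for cluster numbers and overlap only.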
